A study of Mus musculus with 12 samples.

Results

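The 37 genes described here encode proteins of DNA replication (16 genes) and of mitosis (21 genes). All 37 were found by symbol in a table of 45808 genes, and all passed the filter of a mean of at least 10 normalized counts that left 15025 genes for testing. RNA was sequenced from distal ileum of BALB/c mice, in 6 libraries from mice treated with Porphyromonas gingivalis, an oral bacterium associated with periodontitis, and 6 from PBS controls. No genotype or other treatment is labelled in either group. How, at what dose and for how long the bacterium was given, and the age and sex of the mice, were not stated in the labels. Nor do they say that each library is a separate mouse, so the errors and p-values measure the spread between these samples. The members were chosen by earlier results of the same comparison. E2f3, Mcm3 and Hells had been among the genes with the smallest p-values of those with a higher mean after P. gingivalis, and a cell cycle list holding most of the others had been found higher. The group differences below are therefore a description of these libraries and give no support to a change of the list.

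Before a cell divides, the MCM helicase is loaded onto replication origins by licensing factors such as Cdc6, deoxynucleotides are made by enzymes such as ribonucleotide reductase and thymidylate synthase, and E2F transcription factors raise the genes for both steps as cells enter S phase. Mitosis follows when cyclin B and Cdk1 become active, the spindle attaches to kinetochores under the watch of a checkpoint, and the anaphase-promoting complex with Cdc20 releases the chromosomes. In the ileum most dividing cells are transit-amplifying cells of the epithelial crypts, and the germinal centres of lymphoid follicles divide as well. In bulk tissue more dividing cells and more of these RNAs per cell cannot be told apart.

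The replication and the mitosis genes differ in the promoter letters they carry, a property that the choice of members did not use. E2F factors bind sites in the promoters of S phase genes, whereas many mitotic promoters hold a cell cycle homology region (CHR), bound by the DREAM and B-Myb complexes, together with CCAAT boxes bound by NF-Y. Promoters from 250 bases before to 50 bases after the RefSeq start (build GRCm38.p6) were searched on both strands for an E2F motif (TTTCCCGC or TTTCGCGC, also TTTGCCGC or else TTTGGCGC), for a CHR motif (TTTGAA or else TTCGAA) and for CCAAT. None of the motifs contains another. The RefSeq table matched 31 members with 33 promoters, since Mcm7 and E2f3 have 2 each. Mcm4, Gins2, Ccna2, Aurkb, Foxm1 and Tpx2 were not matched. The E2F motif was in 7 of 16 replication promoters (43.8%), in 2 of 17 mitosis promoters (11.8%) and in 744 of all 32851 promoters (2.26%). The CHR motif was in 3 of 16 replication promoters (18.8%), in 13 of 17 mitosis promoters (76.5%) and in 19.2% of all promoters. A CCAAT box was in 10 of 16 replication promoters (62.5%), in 14 of 17 mitosis promoters (82.4%) and in 37.4% of all promoters. CHR and CCAAT stood together in 12 of 17 mitosis promoters (70.6%), in 3 of 16 replication promoters and in 7.52% of all promoters.

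The 160 bases before the start are shown for 5 replication members, chosen for their E2F matches or their place in the results, and for 4 mitosis members with CHR matches. Each runs 5′ to 3′ on the gene's strand, and capitals mark letters of a match to any of the motifs, in either orientation.
Mcm3 (chr1:20820313-20820472, minus strand): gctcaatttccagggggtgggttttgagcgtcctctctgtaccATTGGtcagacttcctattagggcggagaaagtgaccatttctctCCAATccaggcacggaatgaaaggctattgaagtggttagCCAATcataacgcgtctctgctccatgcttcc
Mcm5 (chr8:75109349-75109508, plus strand): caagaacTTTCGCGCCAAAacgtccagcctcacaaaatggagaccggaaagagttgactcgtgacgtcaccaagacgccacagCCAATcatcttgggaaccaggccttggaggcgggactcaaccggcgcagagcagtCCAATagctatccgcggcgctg
Mcm6 (chr1:128359706-128359865, minus strand): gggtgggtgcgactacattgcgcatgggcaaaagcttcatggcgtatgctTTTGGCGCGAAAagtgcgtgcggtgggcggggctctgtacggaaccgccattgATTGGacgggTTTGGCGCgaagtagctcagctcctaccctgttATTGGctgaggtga
E2f3 (chr13:29986064-29986223, minus strand): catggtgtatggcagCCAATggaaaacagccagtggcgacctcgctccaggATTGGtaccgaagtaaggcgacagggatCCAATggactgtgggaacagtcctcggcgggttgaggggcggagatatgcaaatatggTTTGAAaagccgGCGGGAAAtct
Cdc6 (chr11:98907991-98908150, plus strand): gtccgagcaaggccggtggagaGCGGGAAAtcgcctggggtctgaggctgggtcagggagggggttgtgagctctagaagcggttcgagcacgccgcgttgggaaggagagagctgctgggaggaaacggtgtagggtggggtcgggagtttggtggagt
Cdk1 (chr10:69352913-69353072, minus strand): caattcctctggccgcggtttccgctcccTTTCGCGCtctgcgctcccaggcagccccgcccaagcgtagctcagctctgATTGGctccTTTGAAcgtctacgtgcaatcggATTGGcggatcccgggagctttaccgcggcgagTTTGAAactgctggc
Cdc20 (chr4:118437344-118437503, minus strand): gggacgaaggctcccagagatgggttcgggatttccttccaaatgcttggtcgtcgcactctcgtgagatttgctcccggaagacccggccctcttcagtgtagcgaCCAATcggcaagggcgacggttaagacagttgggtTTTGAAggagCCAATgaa
Kif11 (chr19:37376222-37376381, plus strand): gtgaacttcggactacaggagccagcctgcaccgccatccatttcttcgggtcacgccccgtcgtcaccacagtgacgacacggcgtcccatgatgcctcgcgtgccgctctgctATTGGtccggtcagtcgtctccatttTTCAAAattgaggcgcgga
Top2a (chr11:99024190-99024349, minus strand): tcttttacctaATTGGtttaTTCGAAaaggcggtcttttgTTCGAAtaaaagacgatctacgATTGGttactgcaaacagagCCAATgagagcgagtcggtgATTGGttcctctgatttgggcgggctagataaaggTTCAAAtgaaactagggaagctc
Mcm5 and Mcm6 hold 2 overlapping E2F matches each in these windows, and Mcm6 another one nearer the start. Both E2F matches of Mcm3 begin after the start, at bases 20 and 39, so that its window shows CCAAT boxes only. E2f3 carries an E2F match 11 bases and a CHR match 23 bases before its start. Cdk1 is the mitosis member with an E2F match in its window, beside 2 CHR matches and 2 CCAAT boxes, and Ncapg2 was the other mitosis member with an E2F match. In Top2a the window holds 3 CHR matches and 4 CCAAT boxes. The windows lie outside genes in GENCODE M21 except for Cdc6, whose window falls in an intron of that annotation's longer Cdc6 model, and for the last 26 bases of Cdk1 and 9 of Cdc20, which it counts as first exon. A match describes letters and does not show that a factor binds.

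**Figure D1:**
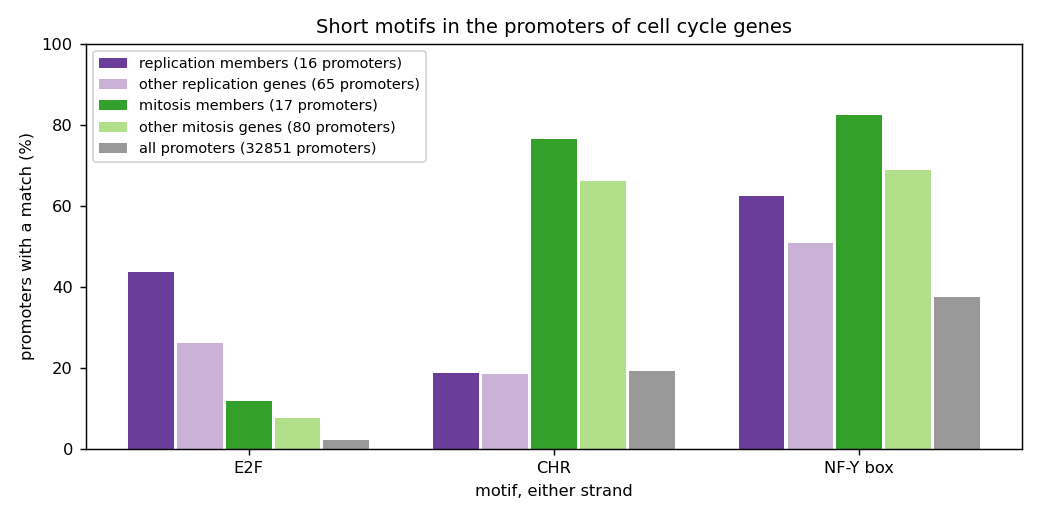
Share of promoters (percent, vertical axis) with at least 1 match to the E2F, CHR or CCAAT (NF-Y box) motif on either strand, for the replication and mitosis members, the other genes of both processes and all promoters. The E2F bar is highest for the replication members at 43.8%, and the CHR bar for the mitosis members at 76.5%.

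The other genes of both processes carried the motifs in a like pattern. Among 65 promoters of other replication genes, 17 held the E2F motif (26.2%) and 12 the CHR motif (18.5%). Among 80 promoters of other mitosis genes, 6 held the E2F motif (7.5%) and 53 the CHR motif (66.3%).

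Some libraries stand apart in ways that cross both groups. Fabp6, the bile acid binding protein that marks ileal enterocytes, was at 2.52 and 16 normalized counts in P. gingivalis replicates 1 and 5 and at 4.32 in PBS replicate 6, against at least 11246 in each of the other libraries, so these 3 nearly lack a defining marker of distal ileum. Fabp1, a fatty acid binding protein of more proximal gut, was at 26745 and 21996 in P. gingivalis replicates 1 and 5 and at 16938 in PBS replicate 6, and at 1821 or less in the other libraries. The summed level of 15 B cell markers was 1002 to 1461 in P. gingivalis replicates 3, 4 and 6 and 1174 and 1257 in PBS replicates 1 and 6, and 415 or less in the other libraries. Reads of the ribosomal gene Rn18s-rs5 made up 4.60% of P. gingivalis replicate 4, against 0.629% or less elsewhere, and the mitochondrial ribosomal RNAs made up 10.9% of P. gingivalis replicate 1, against 0.836% to 8.26% elsewhere. Depth was 6553306 to 9875045 reads per library after P. gingivalis and 7610970 to 10378841 in PBS. Results without the 3 and without the 5 libraries follow the marker values.

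Set against the whole table, the replication members had a higher mean log2 level after P. gingivalis in all 16 cases and the mitosis members in 17 of 21. For mitosis the count was 16 with trimmed-mean rescaling, edgeR and DESeq2 and 20 with sample weights. The median difference, taken as P. gingivalis minus PBS with values as log2(normalized count + 1), was 0.19 for replication (range 0.12 to 0.42) and 0.13 for mitosis (range -0.10 to 0.40), while the median over all genes tested was -0.00390. A positive difference was found for 33 of the 37 members and for 48.9% of all genes. No member passed limma's test over all genes, which called 0 of the 15025 (0%). At an unadjusted p under 0.05 limma had 8 members, all with a higher mean after P. gingivalis (5 of replication, 3 of mitosis), against 1.57% of all genes in that direction and 3.73% in either. edgeR called 0 members (0% of its 14907 genes) and DESeq2 called 0 members (0.181% of its 18239 genes). By unadjusted p under 0.05 there were 11 members with edgeR, against 3.64% of its genes, and 7 with DESeq2, against 3.53% of its genes. The adjusted p-values of the members were 0.446 or more by limma. Since the choice of members used this comparison, nothing is read from these counts about the list.

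**Figure D2:**
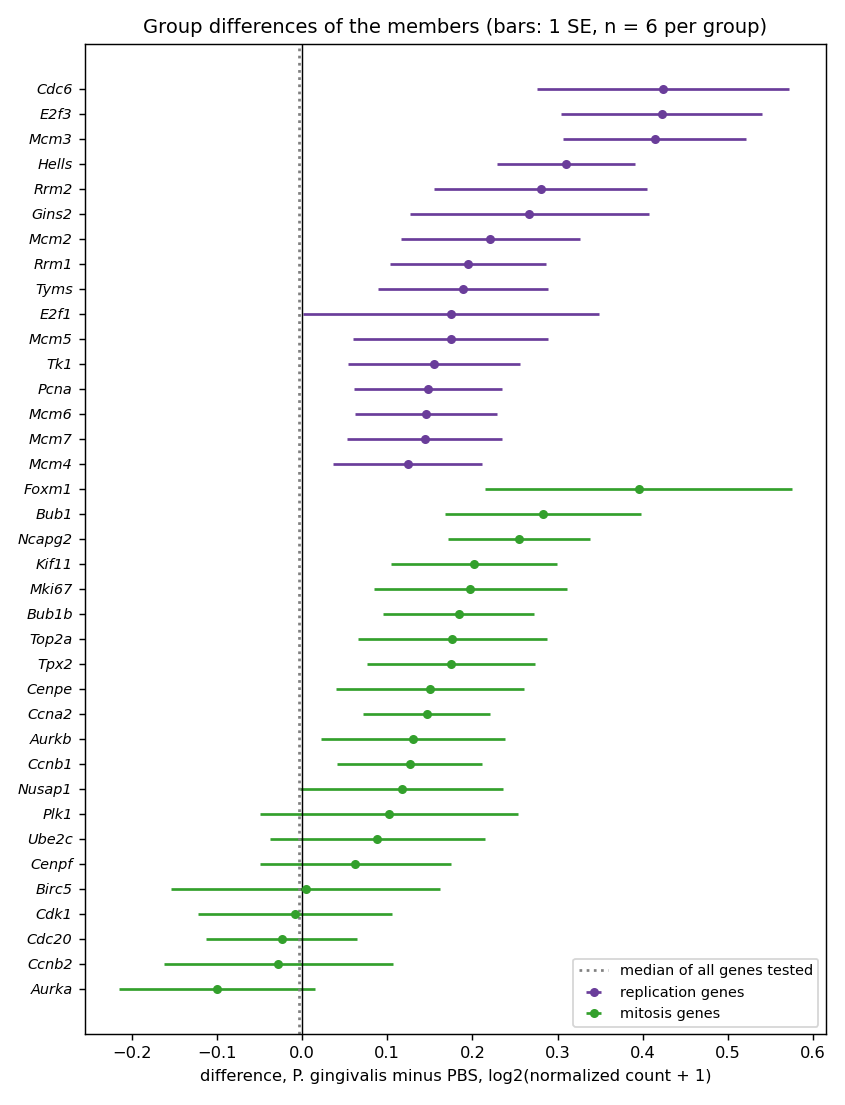
Difference between groups for each member (P. gingivalis minus PBS, log2(normalized count + 1)) with bars of 1 SE, n = 6 libraries per group, and the median of all genes as a dotted line. The 16 replication genes lie between 0.12 and 0.42, and the mitosis genes between -0.10 and 0.40, with Aurka below 0 and Cdk1, Cdc20 and Ccnb2 just below it, the last 3 above 0 with sample weights.

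Among the replication genes the MCM subunits form the ring of the replicative helicase. Mcm3 had 252, 245, 290.4, 306, 277 and 257 normalized counts in P. gingivalis replicates 1 to 6, against 221, 150.5, 210.2, 195, 216 and 234 in PBS replicates 1 to 6. All 6 P. gingivalis libraries lay above the highest PBS library, and PBS replicate 2 was the lowest of all, for a difference of 0.41 (SE 0.11). Mcm2 ran at 239 to 308 normalized counts in P. gingivalis libraries with a median of 259.8, against 170.2 to 248 in PBS libraries with a median of 243. PBS replicate 2 lay far below the other PBS libraries, the groups overlapped, and 4 of 6 P. gingivalis libraries exceeded every PBS library, for a difference of 0.22 (SE 0.11) that was 0.14 without PBS replicate 2. Mcm4, the MCM gene with the smallest difference (0.12, SE 0.09), ran at 276 to 349 normalized counts in P. gingivalis libraries with a median of 323, against 264 to 323 in PBS libraries with a median of 287. Its groups overlapped. The remaining subunits had differences of 0.17 (SE 0.11) for Mcm5, 0.15 (SE 0.08) for Mcm6 and 0.14 (SE 0.09) for Mcm7, each with overlapping groups, and that of Mcm5 was 0.11 without PBS replicate 2. Mcm7 shares its locus with Ap4m1 and Cops6 on the other strand and with the miRNA genes Mir25 and Mir93, and Gins2, Tk1 and Nusap1 overlap Gse1, Afmid and Oip5. The labels do not say whether counting used strand, so reads of such neighbours cannot be told apart.

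Cdc6, which loads the MCM ring, ran at 58.3 to 102 normalized counts in P. gingivalis libraries with a median of 91.5, against 56.8 to 70.7 in PBS libraries with a median of 58.0. P. gingivalis replicates 1 and 5 were in the PBS range and the other 4 lay above it, for a difference of 0.42 (SE 0.15), the largest of the 37. Gins2, a subunit of the GINS complex that joins the active helicase, differed by 0.27 (SE 0.14) with overlapping groups. Pcna, the sliding clamp of the DNA polymerases, ran at 594 to 762 normalized counts in P. gingivalis libraries with a median of 644, against 517 to 664 in PBS libraries with a median of 593. In all, 2 P. gingivalis libraries exceeded the highest PBS library, and the difference was 0.15 (SE 0.09).

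Among the genes of nucleotide supply, Rrm2, the S phase subunit of ribonucleotide reductase, ran at 104 to 143 normalized counts in P. gingivalis libraries with a median of 128, against 83.6 to 126 in PBS libraries with a median of 96.5. Its groups overlapped, with P. gingivalis replicates 2 and 6 low and PBS replicates 4 and 6 high, for a difference of 0.28 (SE 0.13). Rrm1, the catalytic subunit of the same enzyme, differed by 0.20 (SE 0.09), Tyms, thymidylate synthase, by 0.19 (SE 0.10), and Tk1, the thymidine kinase of the cytosol, by 0.15 (SE 0.10). All 3 had overlapping groups.

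E2f3, an activating E2F factor, had 182, 221, 185, 226, 201 and 177 normalized counts in P. gingivalis replicates 1 to 6, against 144, 108, 151, 147, 171 and 173 in PBS replicates 1 to 6. All 6 P. gingivalis libraries again lay above all PBS libraries, and PBS replicate 2 was again the lowest, for a difference of 0.42 (SE 0.12). E2f1, the other activating E2F factor in the list, ran at 26.3 to 32.0 normalized counts in P. gingivalis libraries with a median of 29.3, against 16.1 to 32.4 in PBS libraries with a median of 29.2. The medians nearly met and the difference of 0.17 (SE 0.17) was about as large as its error, with PBS replicates 3 and 2 the lowest libraries. Without PBS replicate 3 the difference of E2f1 was 0.044. Hells, a chromatin remodelling helicase of the SNF2 family, ran at 288 to 374 normalized counts in P. gingivalis libraries with a median of 329, against 241 to 287 in PBS libraries with a median of 262. These groups did not overlap, but the gap between them was narrow, and the difference was 0.31 (SE 0.08).

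Mki67 and Top2a are classical markers of cycling cells. Mki67, which coats mitotic chromosomes, ran at 1728 to 2524 normalized counts in P. gingivalis libraries with a median of 2041, against 1579 to 1940.2 in PBS libraries with a median of 1823. P. gingivalis replicates 1, 4 and 5 stood above the PBS range and the other 3 fell inside it, for a difference of 0.20 (SE 0.11). Top2a, the topoisomerase that untangles chromosomes, ran at 1284 to 1924 normalized counts in P. gingivalis libraries with a median of 1614, against 1253 to 1659.6 in PBS libraries with a median of 1438. Its groups overlapped, with 3 P. gingivalis libraries above every PBS library, for a difference of 0.18 (SE 0.11).

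Among the cyclins and their kinase, Ccnb1, cyclin B1, ran at 163 to 199 normalized counts in P. gingivalis libraries with a median of 174, against 149 to 188 in PBS libraries with a median of 154. The ranges overlapped, and the difference was 0.13 (SE 0.09). Cdk1, the kinase that cyclin B activates, ran at 179 to 242 normalized counts in P. gingivalis libraries with a median of 221, against 182 to 269.8 in PBS libraries with a median of 206. Its highest value of all 12 libraries was in PBS replicate 2, and the difference was -0.01 (SE 0.11). Ccna2, cyclin A2, differed by 0.15 (SE 0.07) and Ccnb2, cyclin B2, by -0.03 (SE 0.13). The signs of Cdk1 and Ccnb2 turned with sample weights and without PBS replicate 2, among other single libraries. Reads of Ccna2 may include its neighbour Exosc9, which overlaps it. Foxm1, a transcription factor that acts on genes of G2 and mitosis, ran at 73.1 to 141 normalized counts in P. gingivalis libraries with a median of 98.6, against 57.1 to 99.3 in PBS libraries with a median of 75.8. The ranges overlapped widely, and its difference of 0.40 (SE 0.18) had the largest error of the 37 members. Foxm1 overlaps Gm44596 and Tex52 on the same strand, so that reads of these genes may be shared whatever the strand setting.

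Of the spindle checkpoint genes, Bub1, a kinetochore kinase, ran at 105 to 154 normalized counts in P. gingivalis libraries with a median of 130.1, against 88.5 to 116 in PBS libraries with a median of 108. Of the P. gingivalis libraries, 4 exceeded the PBS range, for a difference of 0.28 (SE 0.12). Bub1b, which encodes the checkpoint protein BubR1, differed by 0.18 (SE 0.09). Cdc20, the activator of the anaphase-promoting complex that the checkpoint holds back, ran at 154 to 202 normalized counts in P. gingivalis libraries with a median of 181, against 159.6 to 202 in PBS libraries with a median of 187. The groups covered the same range, with a difference of -0.02 (SE 0.09) whose sign turned with sample weights, and Ube2c, a ubiquitin-conjugating enzyme of that complex, differed by 0.09 (SE 0.13), or by 0.038 to 0.15 when 1 library was left out. Cdc20 overlaps Elovl1 and Ube2c overlaps Tnnc2 in the annotation.

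Of the mitotic kinases, Aurka, Aurora A of the spindle poles, ran at 78.3 to 112 normalized counts in P. gingivalis libraries with a median of 92.6, against 81.4 to 113 in PBS libraries with a median of 97.4. It was the member with the lowest difference, -0.10 (SE 0.11), and its ranges lay over one another. Leaving out 1 library gave Aurka differences from -0.16 without P. gingivalis replicate 1 to -0.054 without P. gingivalis replicate 6. Aurkb, Aurora B of the chromosomal passenger complex, differed by 0.13 (SE 0.11), Birc5, survivin of the same complex, by 0.00 (SE 0.16), with a sign that turned under 3 other scalings or count tests, and Plk1, polo-like kinase 1, by 0.10 (SE 0.15). Among the spindle and kinetochore proteins the difference was 0.20 (SE 0.10) for the spindle motor Kif11, 0.15 (SE 0.11) for the kinetochore motor Cenpe and 0.06 (SE 0.11) for the kinetochore protein Cenpf. It was 0.17 (SE 0.10) for Tpx2, which activates Aurora A at the spindle, and 0.12 (SE 0.12) for the microtubule protein Nusap1. All of these had overlapping groups. Leaving out 1 library moved Plk1 between 0.028 without P. gingivalis replicate 4 and 0.22 without P. gingivalis replicate 6, and Cenpf between 0.0061 without P. gingivalis replicate 4 and 0.12 without P. gingivalis replicate 1. It moved Nusap1 between 0.059 and 0.17, lowest without PBS replicate 6, and Cenpe between 0.092 and 0.20, lowest without P. gingivalis replicate 4. Ncapg2, a subunit of condensin II, which compacts chromosomes, was the mitosis gene whose groups did not overlap. It ran at 227 to 272 normalized counts in P. gingivalis libraries with a median of 241, against 171 to 226 in PBS libraries with a median of 208. The lowest P. gingivalis and the highest PBS library nearly touched, for a difference of 0.25 (SE 0.08).

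**Figure D3:**
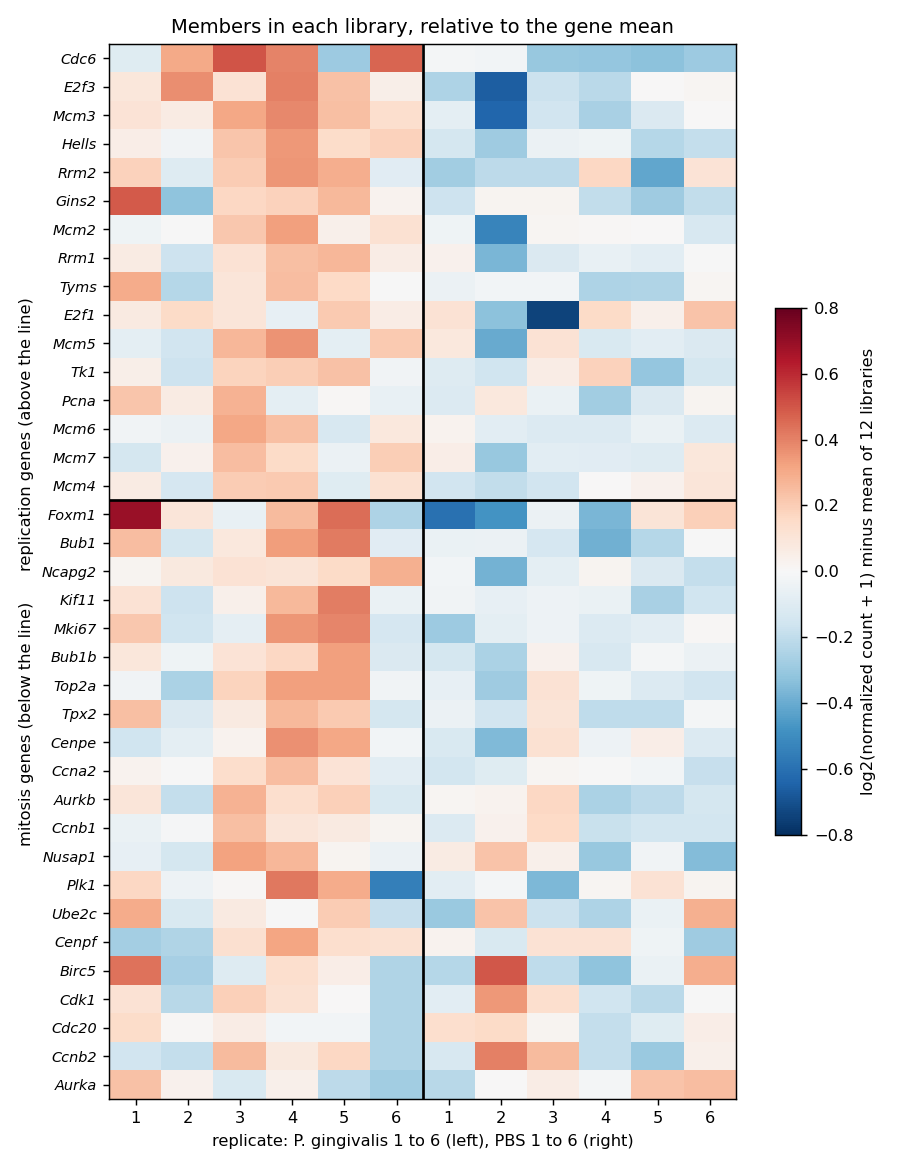
Each member (rows, replication above the line and mitosis below it) in each library (columns, P. gingivalis replicates left, PBS replicates right), as log2(normalized count + 1) minus the gene's mean over the 12 libraries. Replication rows are mostly red in P. gingivalis columns, whereas mitosis rows also turn blue in P. gingivalis replicates 2 and 6, and PBS replicate 2 is blue for Mcm3, E2f3 and Mcm2 but red for Birc5, Ccnb2 and Cdk1.

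Groups without overlap, all higher after P. gingivalis, were found for 4 of the 37 members, Mcm3, E2f3, Hells and Ncapg2, and for 14 of all genes tested (0.0932%). The rule had used this contrast, so nothing is read from the comparison. Trimmed-mean rescaling left Mcm3 and E2f3 as the members without overlap, beside 9 of all genes (0.0599%).

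The mean of the 16 replication genes in each library was 7.67, 7.57, 7.81, 7.83, 7.68 and 7.69 on the log2 scale in P. gingivalis replicates 1 to 6, and 7.52, 7.33, 7.47, 7.50, 7.45 and 7.55 in PBS replicates 1 to 6. The 2 groups did not overlap, although P. gingivalis replicate 2 and PBS replicate 6 nearly met. The mean of the 21 mitosis genes was 7.90, 7.68, 7.88, 7.99, 7.98 and 7.66 in P. gingivalis replicates 1 to 6, and 7.67, 7.77, 7.80, 7.64, 7.71 and 7.75 in PBS replicates 1 to 6. Here 4 P. gingivalis libraries lay above all PBS libraries and replicates 2 and 6 lay within the PBS range. The libraries thus stood in a different order for replication and for mitosis. P. gingivalis replicate 6 was below its group's mean by 0.02 for replication and by 0.19 for mitosis. PBS replicate 2 was below its group's mean by 0.14 for replication and above it by 0.04 for mitosis.

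P. gingivalis replicate 4 was the highest of the 12 libraries for 7 of the 16 replication genes and for 6 of the 21 mitosis genes. It is the library with much Rn18s-rs5, whose part in this was not tested. PBS replicate 2 was the lowest library for 8 replication genes, and among the mitosis genes it was the lowest for 4 and the highest for 4. P. gingivalis replicate 6 was the lowest for 4 mitosis genes and for 0 replication genes. Within groups, the deviations of pairs of genes from their group means had an average correlation of 0.23 among replication genes and 0.29 among mitosis genes. It was 0.13 between a replication and a mitosis gene and 0.00069 between all genes tested. These values describe 12 libraries, and genes of one library share its depth and cell makeup.

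**Figure D4:**
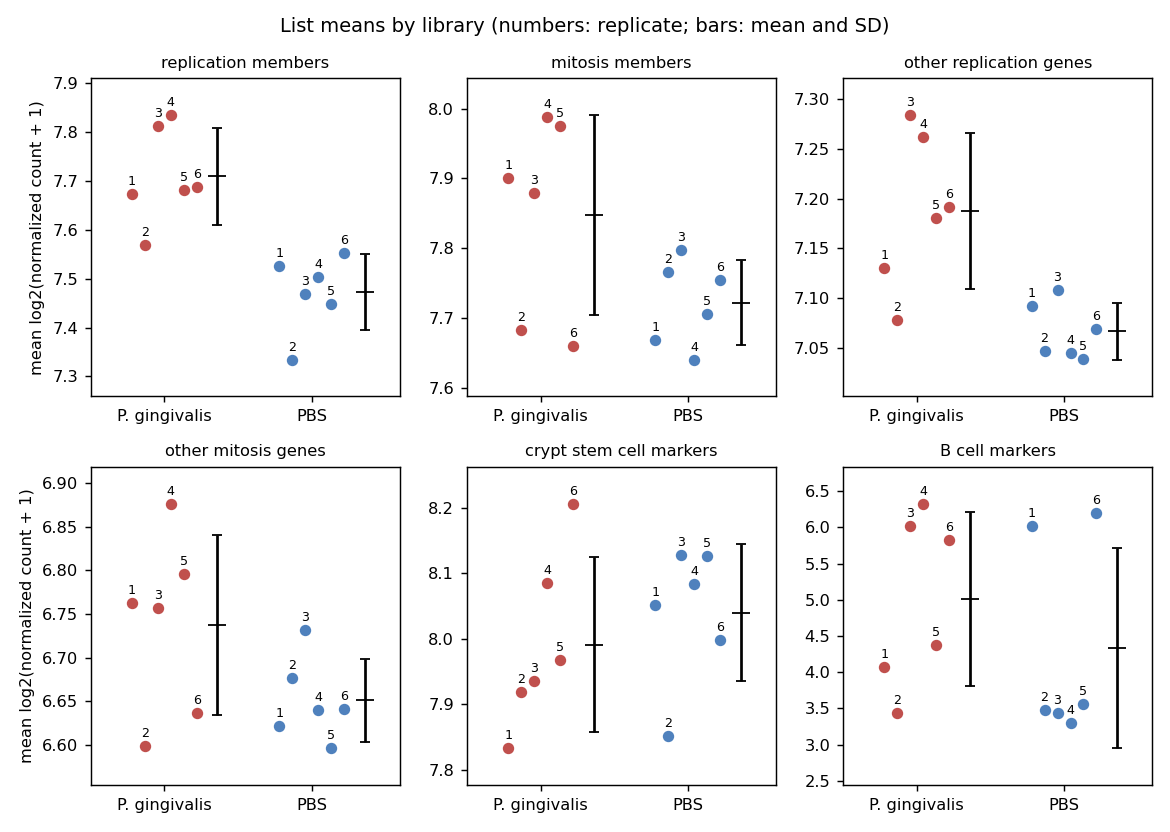
Mean log2(normalized count + 1) per library of the replication and mitosis members, the other genes of both processes, crypt stem cell markers and B cell markers, with P. gingivalis left and PBS right, replicate numbers beside the points, and bars for the mean and SD (n = 6 per group). The replication members do not overlap between groups (lowest P. gingivalis library 7.57, highest PBS library 7.55), the mitosis members do, and the B cell markers split both groups.

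A wider set of genes of the same processes was read beside the members. It was drawn up with earlier results of these libraries known, so it is no independent reading. Of 70 other replication and repair genes, all tested, 59 had a positive difference, with a median of 0.12, against 48.9% positive over all genes. None was called by limma, and 7 had an unadjusted p under 0.05, all with a higher mean after P. gingivalis. Over all genes 1.57% had such a p-value in that direction. Among the largest test statistics were those of Brca1, a homologous recombination protein (0.33, SE 0.11), and Topbp1, a scaffold of the replication checkpoint (0.21, SE 0.08). At the other end were Rfc4, a subunit of the clamp loader (-0.16, SE 0.16), Gins4 of the GINS complex (-0.15, SE 0.12) and Orc5 of the origin recognition complex (-0.13, SE 0.08).

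Of 89 other mitosis genes 83 were tested, and 67 had a positive difference, with a median of 0.09, against 48.9% positive over all genes. None was called by limma, and 10 had an unadjusted p under 0.05, all with a higher mean after P. gingivalis, against 1.57% of all genes. Ect2, which positions the cleavage furrow, differed by 0.22 (SE 0.07), Ttk, the checkpoint kinase Mps1, by 0.30 (SE 0.11), and Esco2, a cohesin acetyltransferase, by 0.27 (SE 0.11). The lowest test statistics were those of Pttg1, the separase inhibitor securin (-0.41, SE 0.20), Cks1b, a Cdk-binding subunit (-0.22, SE 0.18), and Cdc25b, a phosphatase that activates Cdk1 (-0.11, SE 0.11).

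Genes outside the members that drive entry into S phase or hold it back had medians nearer to that of all genes. Of 14 G1 cyclins and kinases 9 had a positive difference (median 0.03), with 0 at an unadjusted p under 0.05 by limma and 0 called. Ccnd2, cyclin D2 (0.20, SE 0.15), Skp2, a ubiquitin ligase subunit that removes p27 (0.14, SE 0.16), and Ccne2, cyclin E2 (0.08, SE 0.12), had the highest statistics. Mycn (-0.24, SE 0.21) and Myc (-0.11, SE 0.20), both growth transcription factors, and Cdk7, the Cdk-activating kinase (-0.05, SE 0.08), had the lowest. Of 16 E2F and pocket protein regulators 12 had a positive difference (median 0.03), with 1 at an unadjusted p under 0.05 and 0 called. That gene was E2f7, an atypical repressive E2F (0.45, SE 0.18), followed by the E2F partner Tfdp1 (0.13, SE 0.07) and by E2f8, the other atypical repressor (0.33, SE 0.20). E2f5 of the repressive E2F class (-0.29, SE 0.16), Lin37 of the DREAM complex (-0.20, SE 0.15) and Mybl1 of the Myb family (-0.08, SE 0.21) were the lowest. This list leaves out E2f3, which is counted among the replication members (0.42, SE 0.12), so its median depends on that placement.

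Of 15 tested cell cycle inhibitors 8 had a positive difference (median 0.00465), with 0 at an unadjusted p under 0.05 by limma and 0 called. Wee1, the kinase that holds Cdk1 inactive (0.37, SE 0.20), Cdkn3, a Cdk phosphatase (0.18, SE 0.18), and Tob2, an antiproliferative protein (0.21, SE 0.26), were at the upper end. Btg2, another antiproliferative protein (-0.17, SE 0.13), Cdkn2b, the Cdk4 and Cdk6 inhibitor p15 (-0.25, SE 0.20), and Ccng2, an atypical cyclin linked to arrest (-0.19, SE 0.16), were at the lower end.

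Levels were compared between genes per length, as normalized counts per kb of merged exon over all 12 libraries (mean ± SD, n = 12). Pcna was the highest member at 262 ± 28.1, followed by Mki67 at 194 ± 29.6 and Top2a at 171 ± 24.6. Mcm6 (103 ± 10.9), Ccna2 (102 ± 8.90), Ccnb2 (102 ± 16.8) and Cdc20 (97.9 ± 8.33) came next and differed from one another by less than their spread. Most other members lay between 22.6 (Ncapg2) and 84.6 (Mcm4), many of them within the spread of their neighbours. The lowest were Foxm1 (15.6 ± 4.22), Cdc6 (14.0 ± 3.38), Gins2 (10.1 ± 1.83) and E2f1 (8.87 ± 1.49). Among the MCM subunits, Mcm2 was the lowest at 35.6 ± 4.80 and Mcm6 the highest. The merged exon length counts every annotated isoform, so a gene with a long rare isoform reads too low on this scale.

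**Figure D5:**
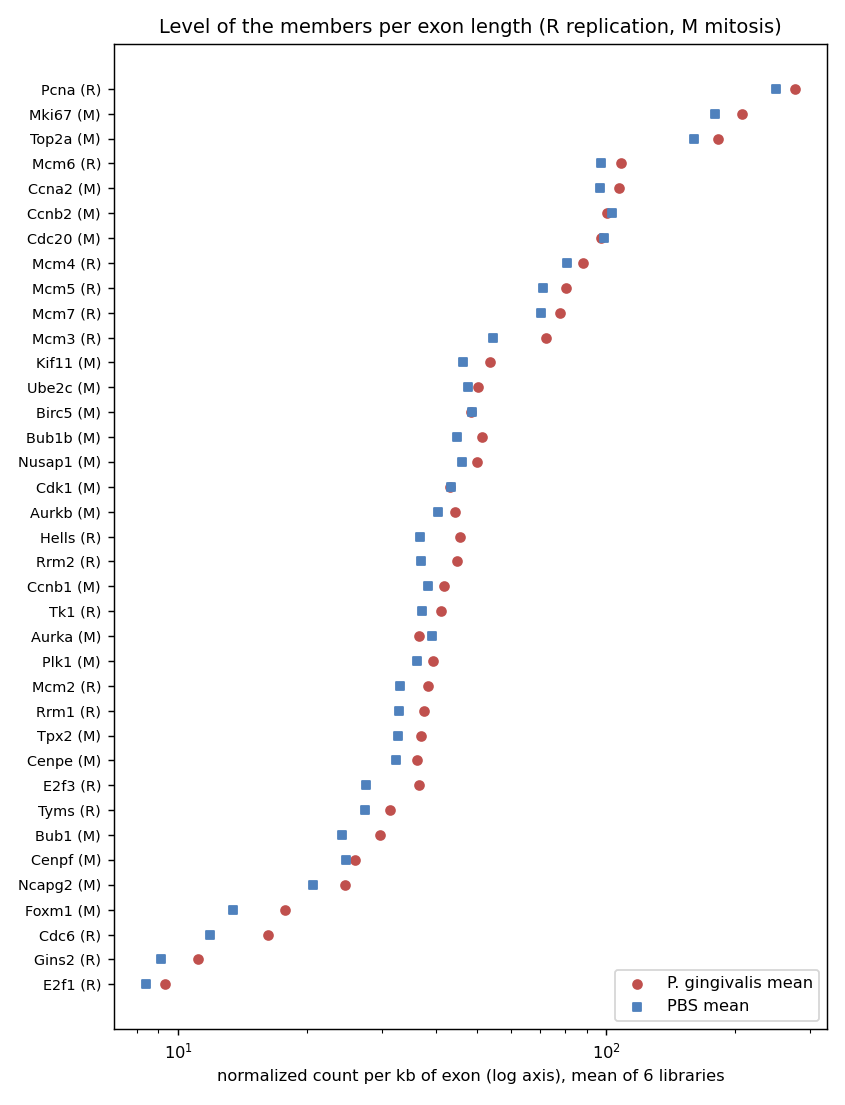
Level of each member as normalized count per kb of exon (log axis), as the mean of 6 P. gingivalis libraries (circles) and of 6 PBS libraries (squares), with genes ordered by the mean of all 12. The order runs over more than a factor of 10, with Pcna at the top and E2f1 at the bottom, and the circles lie right of the squares for all replication genes.

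Crypt stem cell markers are read here because crypts hold most dividing cells of this tissue. Of 15 such markers 6 had a positive difference, with a median of -0.05 and 0 at an unadjusted p under 0.05 by limma, and their summed level ran from 7642 to 9770 after P. gingivalis and from 7713 to 10795 in PBS. Lgr5, a receptor of crypt base stem cells, averaged 149 ± 31.0 after P. gingivalis and 139 ± 27.9 in PBS, and Olfm4, another crypt base marker, averaged 3216 ± 542 after P. gingivalis and 3620 ± 591 in PBS (SD, n = 6 each). Of 12 epithelial markers 2 had a positive difference (median -0.15), and Epcam averaged 11846 ± 3581 after P. gingivalis and 13272 ± 1444 in PBS.

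All 15 B cell markers had a positive difference (median 0.70), but the median SE was 0.76 and 0 had an unadjusted p under 0.05 by limma. Their summed levels were 188 to 1461 after P. gingivalis and 184 to 1257 in PBS. Of 7 tested germinal centre markers 2 had a positive difference (median -0.02), and the summed level of all 11 ran from 819 to 892 after P. gingivalis and from 786 to 945 in PBS. All 8 tested T cell markers, of 14 listed, had a positive difference (median 0.50). By limma 2 had an unadjusted p under 0.05, against 3.73% of all genes. The summed levels of all 14 were 233 to 754 after P. gingivalis and 184 to 548 in PBS. The highest sums were those of the libraries with very low Fabp6, P. gingivalis replicates 1 (754) and 5 (606) and PBS replicate 6 (548). Every other library had 372 or less.

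Among the 5 libraries with high B cell markers the replication mean was 7.69 to 7.83 in P. gingivalis replicates 3, 4 and 6 and 7.52 and 7.55 in PBS replicates 1 and 6. Among the other 7 it was 7.57 to 7.68 in P. gingivalis replicates 1, 2 and 5 and 7.33 to 7.50 in PBS replicates 2 to 5. Since the groups do not overlap over all 12 libraries, these values could not overlap either. Without the 5 libraries the median difference was 0.21 for replication, with 16 of 16 positive, and 0.09 for mitosis, with 16 of 21 positive, and Cenpf and Nusap1 were then below 0 and Cdc20 above it. The median hides that 8 of the 16 replication genes moved by over 1.5 times. The difference was then 0.024 for Mcm4, 0.019 for Mcm5 and 0.022 for Mcm6. It was also smaller for Mcm2 (0.12), Mcm7 (0.091), Cdc6 (0.21) and Tk1 (0.094), while that of E2f1 was larger (0.36). Of the 21 mitosis genes 14 moved by over 1.5 times, among them Top2a to 0.094, Ccnb1 to 0.036, Ccna2 to 0.073 and Foxm1 to 0.61. Mcm3, E2f3, Hells and Ncapg2 had no overlap, which was fixed beforehand, since they had none over all 12 libraries. In these libraries 1395 of all genes (9.28%) had no overlap with P. gingivalis higher, a share close to 4 of 37. Nothing is read from this count. That reduced set was chosen after the values were seen.

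Smooth muscle and fat markers went the other way. All 12 smooth muscle markers had a negative difference (median -0.52, 5 at an unadjusted p under 0.05), with summed levels of 12782 to 40582 after P. gingivalis and 19505 to 32019 in PBS, and the smooth muscle actin gene Actg2 averaged 1092 ± 531 after P. gingivalis and 1636 ± 371 in PBS. All 11 fat cell markers had a negative difference (median -4.06, 10 at an unadjusted p under 0.05), with summed levels of 1347 to 4412 after P. gingivalis and 3571 to 13310 in PBS. Of these 11 genes, 5 had 0 reads in at least 1 library, so their log2 differences depend in part on the pseudocount. The sums averaged 2419 after P. gingivalis and 8200 in PBS. Over all genes tested 3.73% had an unadjusted p under 0.05 by limma, in either direction. The part of any of these cell types in the levels of the replication and mitosis genes was not tested.

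Without the 3 libraries with very low Fabp6 the replication genes had 16 of 16 positive differences with a median of 0.23, and the mitosis genes had 16 of 21 with a median of 0.11. By over 1.5 times, 3 replication and 8 mitosis genes moved, among them Mcm7 to 0.26, Gins2 to 0.13, Mki67 to 0.12 and Kif11 to 0.11. Cdc6 was then also without overlap, beside Mcm3, E2f3, Hells and Ncapg2, which could not overlap in fewer libraries. Of all genes 77 (0.512%) had no overlap with P. gingivalis higher.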

How the data were processed

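Polyadenylated RNA of 12 libraries was sequenced, 6 after P. gingivalis and 6 in PBS, with groups taken from the treatment labels. The authors deposited a normalized signal per gene, which behaves as read counts over 1 size factor per library. Tools named in the submitters' processing notes are FastQC, HISAT2, Cufflinks and DESeq2, on GRCm38 (mm10). How reads were counted, with or without strand, and on which annotation was not stated. The values gave whole reads for 100% of entries within a tolerance of 0.001 reads (largest deviation 3.69e-05). No columns lacked a sample. No 2 libraries were copies (smallest chi-square per degree of freedom 6.54), 18583 genes had no reads and 27 names had been turned into dates. Library totals ran from 6553306 to 10378841 reads, and weakly covered genes have larger errors.

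Genes with a mean of at least 10 were tested with limma 3.58.1 in R 4.3.3 (mean-variance trend, two-sided, Benjamini-Hochberg adjustment at 0.05) on log2(normalized count + 1). The pseudocount of 1 makes differences understate those of weakly expressed genes. The count tests, edgeR 4.0.16 and DESeq2 1.42.0, ran on the recovered reads as alternatives. The other alternatives were pseudocounts of 0.5 and 5, no filter and a mean of at least 50, 2 rescalings, sample weights, a replicate block, leaving out each library, and leaving out the 3 libraries with very low Fabp6 or the 5 with high B cell markers. The steps were tested on simulated data.

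The members, the other gene lists and the alternatives were chosen with earlier results of these data known. By rule all 37 members are named, with the spread over libraries for Mcm3, E2f3, Hells, Cdc6, Rrm2, Pcna, Mcm2, Bub1, Mki67, Top2a, Ccnb1, Cdk1, Foxm1 and the 2 genes of each process with the lowest limma statistic (E2f1, Mcm4, Aurka, Cdc20). Ncapg2 was added for its groups without overlap. Of each further cell cycle list the 3 highest and 3 lowest by that statistic are named, except for an item not reported here. Exon lengths are those of GENCODE M21, and promoters those of RefSeq, both on GRCm38.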

Additional observations from a re-analysis of the deposited data

Results flagged for a closer look

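Each group of 6 libraries was checked for a library whose gap to the nearest other one took up more of the group's range than Dixon's test allows at the 95% level. This was so in 7 of 158 groups, which covered the 37 members, 4 list means, the other cell cycle genes named and 8 markers, and chance alone flags about 1 in 20. The 1 member among them was Mcm2 in PBS replicate 2, at 170.2 normalized counts, while the other PBS libraries ran from 225 to 248. That library was also the lowest of all 12 for 8 of the 16 replication genes. Cks1b was high in the same library, at 74.7 against 43.3 to 53.5 in the other PBS libraries. P. gingivalis replicate 1 was low for Cdc25b, at 111 against 161 to 190.1 in the rest of its group, and high for Cdkn3, at 42.9 against 25.1 to 31.3. In PBS, Orc5 was high in replicate 3, at 170.4 against 151 to 157, and Mycn in replicate 6, at 19.4 against 10.4 to 13.4. Fabp1 was high in PBS replicate 6, at 16938 against 252 to 1814, and this is a library with very low Fabp6. The cause of these values was not tested.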

How the results depend on the processing

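Of 24 alternatives, none moved the counts of positive differences by over 1.5 times, or the medians by over the spread of the list mean between libraries (SD 0.089 for replication, 0.11 for mitosis), and 0 members were called in any of them. These limits are wide, since a count of 16 of 16 cannot rise at all. Single genes moved more: without the 5 libraries with high B cell markers, 8 of 16 replication and 14 of 21 mitosis genes moved by over 1.5 times. The replication count was 16 wherever all 16 genes were tested, with medians from 0.16 to 0.25, and for mitosis the count ran from 16 to 20 and the median from 0.094 to 0.19. Over all alternatives 31 members, among them all 16 replication genes, kept their direction. The count of all genes called, 0 by limma, was 1 with a pseudocount of 5, 33 with DESeq2, 20 with sample weights, 1 without the 3 libraries with very low Fabp6 and 368 without the 5 libraries with high B cell markers (P. gingivalis replicates 1, 2 and 5 against PBS replicates 2 to 5), and ran from 0 to 53 when 1 library was left out, with 53 without P. gingivalis replicate 6. The count of members without overlap was 2 with trimmed-mean rescaling (0.0599% of all genes) and ran from 4 to 6 when 1 library was left out, with 6 without P. gingivalis replicate 2 (0.333% of all genes), when Rrm1 and Gins2 joined. It was 4 without the 5 libraries, where 9.28% of all genes had no overlap. Groups without overlap cannot come to overlap when libraries are left out. The counts with libraries left out could therefore not fall below 4 and say nothing about stability. The direction turned for 6 mitosis genes. With sample weights Ccnb2 had 0.082, Cdk1 0.085 and Cdc20 0.030. Birc5 had -0.023 with trimmed-mean rescaling, -0.0088 with edgeR, -0.0081 with DESeq2 and -0.057 without the 3 libraries. Without the 5 libraries Cdc20 had 0.074, Cenpf -0.14 and Nusap1 -0.046. Leaving out 1 library gave -0.090 to 0.050 for Ccnb2, -0.052 to 0.061 for Cdk1, -0.064 to 0.022 for Cdc20 and -0.082 to 0.10 for Birc5. The cause of these changes was not tested. The numbers in the sample titles did not pair the libraries, since same-numbered libraries deviated from their group means with correlations from -0.54 to 0.08, and 0 libraries correlated best with their own number. With that number as a replicate block limma called 0 genes. By unadjusted p under 0.05 there were 462 with the block and 560 without it, and the medians stayed at 0.19 and 0.13. The alternatives without the 5 libraries, and the overlap count without the 3, were chosen after seeing the data. Depth and 6 libraries per group limit what can be seen: the median SE of a log2 difference was 0.15 over all genes and 0.11 for the members, whose median difference was 0.17.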

Other observations

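Differences went with exon length in the whole table, so the members were split at the median length of their process. Of 10 mitosis genes with exons shorter than 4.275 kb, 7 had a positive difference (median 0.10), and of 10 longer ones 9 did (median 0.19). Of the replication genes, the 8 shorter and the 8 longer ones were all positive, with medians of 0.17 and 0.21. Over all genes tested with a length, 2826 of 7129 shorter genes (median -0.04) and 4113 of 7130 longer genes (median 0.02) had a positive difference. The part of exon length in the members' differences was not tested.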
